A study of Homo sapiens with 6 samples.

Results

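The genes described here encode the chaperonins of human cells: the 8 subunits of the cytosolic complex TRiC (TCP1, CCT2, CCT3, CCT4, CCT5, CCT6A, CCT7 and CCT8) and the mitochondrial pair HSPD1 and HSPE1. They were chosen by gene symbol, and all 10 were found among the 60564 rows of the table and among the 17006 genes with enough counts to be tested. RNA-seq covered the A2780 line of human ovarian cancer cells, with 3 GPT2si libraries and 3 GPT2sinc libraries. The meaning of si and sinc is not spelled out in the labels, and the title of the series names GPT2, the mitochondrial alanine aminotransferase, as the gene that is lacking. The question for each gene was whether its mRNA differed between GPT2si and GPT2sinc cells.

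Chaperonins are barrel-shaped complexes that take an unfolded protein into a closed chamber and use ATP to let it fold there. TRiC consists of a pair of stacked rings, each built from 1 copy of each of the 8 subunits, and folds actin, tubulin and other proteins made in the cytosol. HSPD1 (HSP60) forms the chamber in the mitochondrial matrix and HSPE1 (HSP10) forms its lid, and this pair folds proteins imported into mitochondria. Many chaperone genes respond to heat shock factors, and the genes HSPD1 and HSPE1 lie head to head around a shared promoter.

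Total counts were between 41931162 and 50882329 in the GPT2si libraries and between 43351984 and 45508530 in the GPT2sinc libraries. GPT2 itself was at 95 ± 1.69 CPM (counts scaled to library size with TMM factors) in GPT2si and 228 ± 8.59 CPM in GPT2sinc (SD, n = 3 each), a log2 fold change of −1.26 (SE 0.08; adjusted p = 0.000393, edgeR quasi-likelihood test with Benjamini-Hochberg adjustment over all tested genes). Of 12 markers of ovarian carcinoma and of its epithelial or mesenchymal state, 5 reached 1 CPM in some library (EPCAM, KRT8, KRT18, CDH2 and VIM), while WT1, MUC16, SOX17, KRT7 and ESR1 had 3 counts or fewer in every library. Of 4 endothelial markers 0 reached 1 CPM, of 5 immune markers 2 did, and of 5 fibroblast markers 4 did, with COL3A1 at 2587 ± 105 CPM in GPT2si and 2561 ± 65.9 CPM in GPT2sinc. The library GPT2si 2 stood apart from its group: a chi-square per degree of freedom over genes was 37.9 against GPT2si 1 and 46.3 against GPT2si 3, and 7.71 between GPT2si 1 and GPT2si 3. GPT2sinc 1 did so to a lesser degree, at 17.6 against GPT2sinc 2 and 18.9 against GPT2sinc 3. Between GPT2sinc 2 and GPT2sinc 3 the value was 9.12. Whether replicate libraries stem from separate cultures is not stated in the labels. The p-values therefore reflect library-to-library spread alone, possibly of technical origin.

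Promoter sequences from RefSeq (GRCh38.p14) are shown for HSPD1 and HSPE1, whose starts face each other, and for CCT3 and CCT7, the subunits with the most abundant mRNA. Each runs 5′ to 3′ on the gene's strand, from 250 bases before a transcription start to 50 bases after it, and capitals mark matches to the motifs searched. The HSPD1 window shown belongs to the farther from HSPE1 of its 2 RefSeq starts. The windows are chr2:197499791-197500090 on the minus strand for HSPD1, chr2:197500129-197500428 on the plus strand for HSPE1, chr1:156338243-156338542 on the minus strand for CCT3 and chr2:73234058-73234357 on the plus strand for CCT7.
HSPD1: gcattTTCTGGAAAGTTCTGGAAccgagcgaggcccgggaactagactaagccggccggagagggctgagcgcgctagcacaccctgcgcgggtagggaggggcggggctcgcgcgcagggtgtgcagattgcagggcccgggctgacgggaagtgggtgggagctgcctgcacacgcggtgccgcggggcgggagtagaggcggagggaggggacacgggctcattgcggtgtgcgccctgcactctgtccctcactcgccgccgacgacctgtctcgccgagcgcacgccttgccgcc
HSPE1: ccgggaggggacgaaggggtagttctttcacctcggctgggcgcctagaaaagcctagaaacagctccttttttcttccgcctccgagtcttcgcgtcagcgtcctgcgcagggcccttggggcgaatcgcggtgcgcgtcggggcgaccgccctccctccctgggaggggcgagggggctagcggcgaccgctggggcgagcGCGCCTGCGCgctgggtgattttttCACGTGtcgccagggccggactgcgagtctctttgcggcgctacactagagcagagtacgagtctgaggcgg
CCT3: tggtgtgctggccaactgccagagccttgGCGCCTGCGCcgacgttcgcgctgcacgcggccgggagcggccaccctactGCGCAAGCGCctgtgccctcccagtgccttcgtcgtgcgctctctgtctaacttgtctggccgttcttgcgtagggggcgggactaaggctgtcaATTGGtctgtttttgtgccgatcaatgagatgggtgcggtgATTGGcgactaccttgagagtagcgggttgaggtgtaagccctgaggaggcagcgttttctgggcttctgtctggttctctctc
CCT7: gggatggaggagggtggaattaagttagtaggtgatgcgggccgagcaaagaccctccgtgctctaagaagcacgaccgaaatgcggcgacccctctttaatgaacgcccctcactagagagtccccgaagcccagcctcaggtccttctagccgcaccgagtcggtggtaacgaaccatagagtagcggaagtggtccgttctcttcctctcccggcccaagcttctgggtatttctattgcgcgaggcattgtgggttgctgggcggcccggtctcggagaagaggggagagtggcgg

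The motifs searched on both strands were TTCNNGAA and GAANNTTC, which are parts of a heat shock element, the E-box CACGTG, an NRF1-like sequence (GCGC and TGCGC with any 1 base between them) and the box CCAAT. HSPD1 had 3 overlapping heat shock matches in 18 bases (chromosome 2, 197500068 to 197500085), which lie 294 bases before the HSPE1 start and so outside the HSPE1 window. RefSeq lists a second HSPD1 start closer to HSPE1: the starts are 105 and 539 bases from that of HSPE1, and the nearer HSPD1 window shares 204 of its 300 bases with the HSPE1 window. An E-box and an NRF1-like match stand in those shared bases, so that both genes hold them. CCT3 had 2 NRF1-like and 2 CCAAT matches, and CCT7 had 0 matches in its window. A part of a heat shock element was found for 4 of the 9 members with a RefSeq promoter (TCP1, CCT2, CCT4 and HSPD1), an NRF1-like match for 4 (CCT3, CCT5, HSPD1 and HSPE1), a CCAAT match for 4 (TCP1, CCT2, CCT3 and CCT8) and an E-box for 2 (HSPD1 and HSPE1). Among all 35116 RefSeq promoters of the same length, 7.74% held TTCNNGAA, 6.77% GAANNTTC, 7.26% the E-box, 5.78% the NRF1-like sequence and 34.61% a CCAAT match. Counted per gene as for the members, in any window of a gene and with either heat shock form, the shares among 27305 genes were 16.18% for the heat shock forms, 6.98% for the NRF1-like sequence, 39.72% for CCAAT and 8.77% for the E-box. These are matches of letters, not known binding sites.

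No chaperonin gene passed the test between GPT2si and GPT2sinc (0 of 10 by edgeR at an adjusted p under 0.05), where 0.576% of all tested genes were called higher and 0.841% lower with GPT2si, 1.42% together. At an unadjusted p under 0.05, 4 members had higher values with GPT2si (CCT2, CCT3, CCT5 and CCT7) and 0 had lower ones, where 10.3% and 9.27% of all tested genes did. In 4 of 10 (CCT3, CCT5, CCT7 and HSPE1) all GPT2si libraries lay above all GPT2sinc libraries, as they did for 14.9% of tested genes, and in 0 members all lay below, as they did for 13.2%. The log2 fold change was positive in 8 of 10, against 48% of all tested genes, with a median of 0.19 against −0.01. DESeq2 called 2 of 10 higher (CCT3 and CCT7), where it called 3.96% of its genes higher. Limma-voom called 0 members, where it called 66 of 17006 genes higher and 108 lower. With the replicate number as a block 0 members were called, where 1.48% of genes were called higher.

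**Figure D1:**
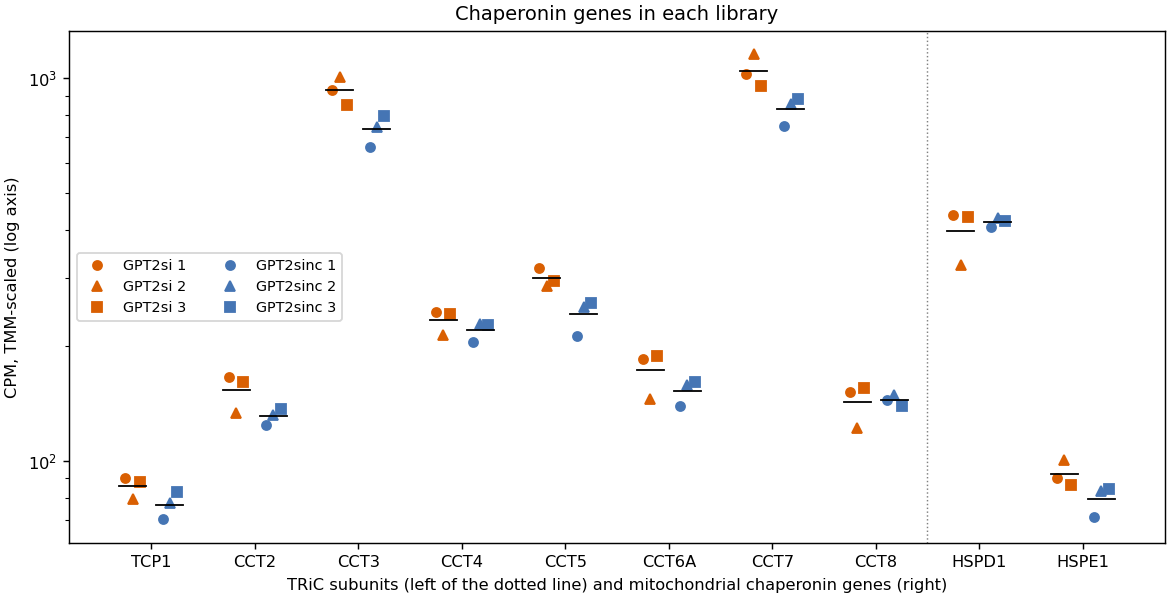
TMM-scaled CPM (log axis) of each chaperonin gene in each library, GPT2si in orange left of GPT2sinc in blue; the marker gives the replicate and the black bar the mean of 3 libraries. CCT3 and CCT7 lie near 1000 CPM, and the triangle of GPT2si 2 is the highest point for CCT3, CCT7 and HSPE1 and the lowest of GPT2si for the other 7 genes.

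CCT3, CCT7 and CCT5 were the TRiC subunits whose groups did not overlap, and their log2 fold changes were 0.34, 0.33 and 0.32. Their order changed with the fit: CCT5 was highest with offsets for GC content and length (0.40), and without GPT2si 2 the values were 0.34 for CCT5, 0.30 for CCT2, 0.26 for CCT3 and 0.24 for CCT7. Without GPT2sinc 1 they were 0.23 for CCT5, 0.19 for CCT2, 0.27 for CCT3 and 0.26 for CCT7. CCT3 (ENSG00000163468), the gamma subunit, lies on chromosome 1 from 156308968 to 156367873 on the minus strand (GRCh38, GENCODE 29, as are all positions of genes here). Its level was 931, 1008 and 849 CPM in GPT2si 1, 2 and 3, against 659, 746 and 797 CPM in GPT2sinc 1, 2 and 3. The lowest GPT2si value stood above the highest GPT2sinc value, with a log2 fold change of 0.34 (95% interval 0.12 to 0.56; adjusted p = 0.117, edgeR), which did not pass.

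CCT7 (ENSG00000135624), the eta subunit, lies on chromosome 2 from 73233420 to 73253021 on the plus strand. It was at 1026, 1152 and 952 CPM in GPT2si 1, 2 and 3, against 750, 857 and 884 CPM in GPT2sinc 1, 2 and 3. The order of the libraries was the same as for CCT3 in both groups, and the groups did not overlap. The log2 fold change was 0.33 (95% interval 0.10 to 0.55; adjusted p = 0.126, edgeR).

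CCT5 (ENSG00000150753; chromosome 5, 10249921 to 10266412, plus strand), the epsilon subunit, had 319.9, 286 and 295 CPM in GPT2si and 212, 253 and 259 CPM in GPT2sinc. The groups did not overlap either, and here GPT2si 2 was the lowest GPT2si library. Its log2 fold change was 0.32 (95% interval 0.10 to 0.53; adjusted p = 0.127, edgeR).

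CCT2 (ENSG00000166226; chromosome 12, 69585334 to 69601570, plus strand), the beta subunit, had 166, 133 and 161 CPM in GPT2si and 124, 132 and 137 CPM in GPT2sinc. GPT2si 2 fell inside the range of the GPT2sinc libraries, while GPT2si 1 and 3 lay above it. The log2 fold change was 0.23 (95% interval 0.00 to 0.45; adjusted p = 0.253, edgeR). Without GPT2si 2 it was 0.30 and passed (adjusted p = 0.0293, edgeR), the only member to do so, where 2.15% of genes were called higher.

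The alpha, delta and zeta subunits showed smaller differences. TCP1 (ENSG00000120438; chromosome 6, 159778498 to 159789749, minus strand), the alpha subunit that gave the complex its name, had 90.1, 79.6 and 88.2 CPM in GPT2si and 70.3, 77.4 and 83.0 CPM in GPT2sinc. CCT4 (ENSG00000115484; chromosome 2, 61868089 to 61888804, minus strand), the delta subunit, had 245, 213 and 242 CPM in GPT2si and 204, 228 and 226 CPM in GPT2sinc. CCT6A (ENSG00000146731; chromosome 7, 56051630 to 56063989, plus strand), the zeta subunit, had 185, 145 and 188 CPM in GPT2si and 139, 158 and 161 CPM in GPT2sinc. In all 3 genes GPT2si 1 and 3 exceeded every GPT2sinc library and GPT2si 2 did not. Their log2 fold changes were 0.16, 0.09 and 0.17 (SE 0.10, 0.09 and 0.11) for TCP1, CCT4 and CCT6A, and their adjusted p ran from 0.379 to 0.604 by edgeR.

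CCT8 (ENSG00000156261; chromosome 21, 29055805 to 29073797, minus strand), the theta subunit, had 151, 122 and 155 CPM in GPT2si and 144, 149 and 139 CPM in GPT2sinc. GPT2si 2 was the lowest of the 6 libraries and GPT2si 1 and 3 the highest. The log2 fold change was −0.01 (95% interval −0.24 to 0.22; adjusted p = 0.964, edgeR).

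The mitochondrial pair did not move together in GPT2si 2. HSPD1 (ENSG00000144381; chromosome 2, 197486581 to 197516737, minus strand) had 438, 324 and 433 CPM in GPT2si 1, 2 and 3, against 408, 432 and 422 CPM in GPT2sinc 1, 2 and 3. HSPE1 (ENSG00000115541; chromosome 2, 197499994 to 197503457, plus strand) had 90.4, 100.3 and 86.3 CPM in GPT2si, against 71.5, 83.3 and 84.4 CPM in GPT2sinc. GPT2si 2 was thus the lowest of 6 libraries for the chamber subunit and the highest of 6 for its lid. The ratio of HSPE1 to HSPD1 CPM, not corrected for length, was 0.206, 0.310 and 0.199 in GPT2si and 0.175, 0.193 and 0.200 in GPT2sinc.

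Log2 fold changes of the pair were −0.08 for HSPD1 (95% interval −0.34 to 0.18; adjusted p = 0.737, edgeR) and 0.21 for HSPE1 (−0.01 to 0.44; adjusted p = 0.279, edgeR). Without GPT2si 2 they were 0.04 and 0.13, and without GPT2sinc 1 they were −0.10 and 0.14. Neither gene passed in these fits. Annotated exons of HSPD1 and HSPE1 overlap on opposite strands over 281 bases, 6.6% of the HSPD1 exons and 14.2% of the HSPE1 exons. The libraries keep strand, but the strand setting used for counting was not given in the sources used here, so reads from these bases may have been assigned to either gene. The same limit holds for TCP1 and CCT4. Exons of ACAT2 overlap TCP1 on the opposite strand over 397 bases, 8.1% of the TCP1 exons. Those of COMMD1 overlap CCT4 over 81 bases, 2.9% of the CCT4 exons. Exons of ENSG00000271980 overlap CCT5 on the opposite strand over 1757 bases, 30.1% of the CCT5 exons. Those of ENSG00000236498 overlap CCT4 over 275 bases, 9.7% of the CCT4 exons. ENSG00000271980 had 2 counts in GPT2sinc 3 and 0 elsewhere, and ENSG00000236498 had 0 in all libraries. Whether reads from these bases went uncounted was not tested.

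Members at their highest in GPT2si 2 and the other members differed in the GC content of their principal transcripts. CCT3, CCT7 and HSPE1, the genes at their highest in GPT2si 2, have 51.2%, 51.8% and 50.2% GC, and the other 7 have 43.1% to 44.7%. The same held across the transcriptome: centred on the gene's mean over 6 libraries, GPT2si 2 had a median of −0.27 over 3328 genes with 40% to 45% GC and of 0.09 over 2813 genes with 50% to 55% GC (log2 CPM). GPT2sinc 1 went the other way, with medians of 0.11 and −0.07 for these genes. In the other 4 libraries both medians lay between −0.01 and 0.10. CCT5, with 44.6% GC, was above its own mean in GPT2si 2 (0.09), unlike the median of its GC class. GPT2sinc 1 was the lowest of the 6 libraries for 8 of 10 members, all but CCT8 and HSPD1.

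**Figure D2:**
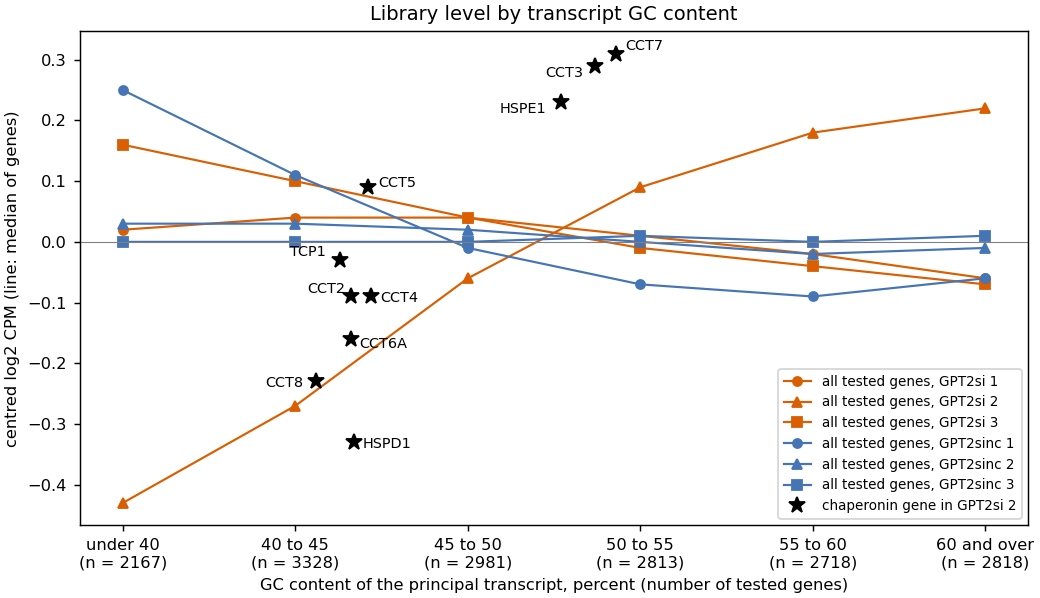
Median centred log2 CPM of all tested genes (lines, one per library) against the GC content of the principal transcript in 6 classes, with each chaperonin gene in GPT2si 2 as a star at its own GC content. The line of GPT2si 2 runs from −0.43 under 40% GC to 0.22 at 60% and over, and the stars of CCT3, CCT7 and HSPE1 lie above those of the 7 genes with less GC.

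A fit with offsets for each library's trend with GC content and transcript length moved some members past the threshold. In it CCT2, CCT3, CCT5 and CCT7 were higher with GPT2si (4 of 10; adjusted p = 0.0274, 0.0308, 0.0324 and 0.0333, edgeR with offsets). The offsets did not level the libraries fully. Medians of all genes by GC class were then 0.01 to 0.08 in GPT2si 2 and −0.06 to −0.02 in GPT2sinc 1. In the remaining libraries they lay between −0.03 and 0.03. Of all genes in that fit 7.97% were called higher and 4.44% lower, 1341 and 747 genes against 98 and 143 without offsets, and the median log2 fold change of all genes was 0.04. Log2 fold changes of the 4 genes were 0.28, 0.34, 0.40 and 0.32, against 0.23, 0.34, 0.32 and 0.33 without offsets. HSPD1 was at −0.02, HSPE1 at 0.20 and CCT8 at 0.05, and none of these passed. With offsets and the replicate block the count was 4 of 10 again, where 7.82% of genes were called higher.

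After the offsets the groups did not overlap in 8 of 10 members, all but CCT8 and HSPD1, where GPT2si lay above GPT2sinc in 22.5% of all genes with offsets. GPT2si 2 was then the highest of 6 libraries for 6 members and still the lowest GPT2si library for CCT2, CCT6A, CCT8 and HSPD1. The 4 calls with offsets were lost or kept depending on which library was left out, with fewer libraries in each such fit. With offsets, 0 members passed without GPT2si 1, without GPT2sinc 1 or without GPT2sinc 2, where 2.37%, 1.82% and 1.82% of all genes were called higher. CCT2 alone passed without GPT2si 2 (5.5% of all genes), CCT3, CCT5 and CCT7 passed without GPT2si 3 (7.18%), and CCT2, CCT3 and CCT5 passed without GPT2sinc 3 (3.81%). The log2 fold changes of CCT2, CCT3, CCT5 and CCT7 were 0.26, 0.35, 0.41 and 0.34 without GPT2si 1 and 0.29, 0.35, 0.44 and 0.34 without GPT2sinc 2, and 0.23, 0.27, 0.30 and 0.26 without GPT2sinc 1.

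**Figure D3:**
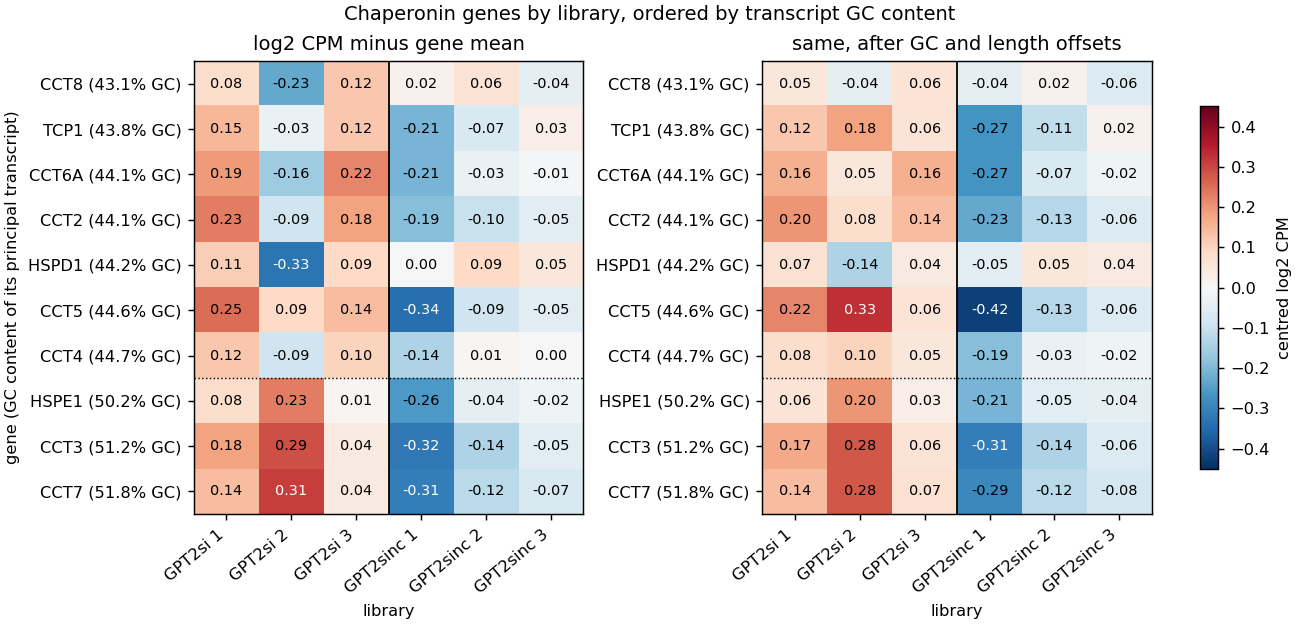
Log2 CPM of each chaperonin gene in each library minus the gene's mean over 6 libraries, before (left) and after (right) offsets for GC content and transcript length; rows run from low to high GC content and the dotted line separates genes under and over 50% GC. Before the offsets GPT2si 2 is negative for 6 of the 7 upper rows and positive for the 3 lower rows, and GPT2sinc 1 stays the lowest library for 8 genes in both panels.

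**Figure D4:**
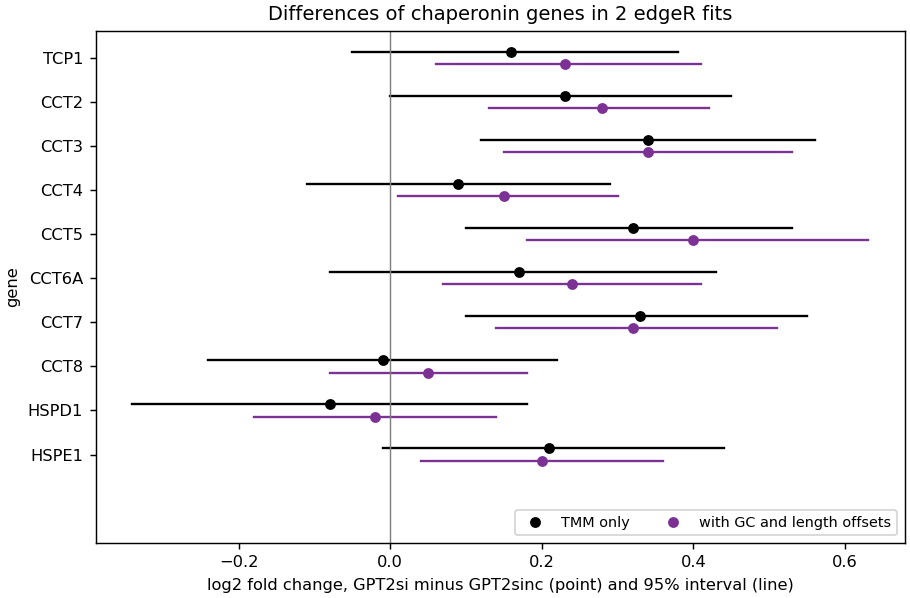
Log2 fold change of GPT2si minus GPT2sinc for each chaperonin gene (points) with its 95% interval (lines), from the edgeR fit with TMM factors only (black) and with GC and length offsets (purple). The points of CCT8 and HSPD1 lie near 0 in both fits, and that of CCT5 moves from 0.32 to 0.40.

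The subunits of TRiC are used in equal numbers in the complex, but their mRNA levels per length were far apart. Scaled by the union of annotated exons, CCT7 had 290.5 ± 28.1 CPM per kilobase in GPT2si and 231 ± 19.7 in GPT2sinc, and CCT3 had 231 ± 19.9 and 183 ± 17.3 CPM per kilobase. TCP1 was lowest, at 17.4 ± 1.13 CPM per kilobase in GPT2si and 15.6 ± 1.3 in GPT2sinc. The highest subunit was 16.7 times the lowest in GPT2si and 14.8 times in GPT2sinc. Levels were scaled by length only and not by GC content. That content was 51.8% for CCT7, 51.2% for CCT3 and 43.1% to 44.7% for the other subunits.

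Between these ends came CCT4, at 82.5 ± 6.28 CPM per kilobase in GPT2si and 77.6 ± 4.63 in GPT2sinc, and then CCT5, CCT6A, CCT8 and CCT2, between 35.5 and 51.4 in GPT2si and between 30.4 and 43.1 in GPT2sinc. In GPT2si the libraries of CCT5, HSPE1, CCT6A, CCT8 and CCT2, in falling order, overlapped from each gene to the next, and in GPT2sinc those of CCT8, CCT5, HSPE1 and CCT6A did. HSPD1 was at 93.8 ± 15.2 CPM per kilobase in GPT2si and 99.1 ± 2.93 in GPT2sinc, and HSPE1 at 46.7 ± 3.66 and 40.3 ± 3.62. Scaled by the principal transcript instead, TRiC subunits spanned 15.8 times in GPT2si and 14.1 times in GPT2sinc, with CCT7 and TCP1 at the ends again, and HSPE1 was at 97.2 and 83.9 CPM per kilobase. Summed CPM of the 8 TRiC genes were 3114, 3139 and 2930 in GPT2si and 2304, 2601 and 2685 in GPT2sinc, and CCT3 and CCT7 made up most of each sum.

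Chaperonin genes have many processed copies in the genome. The table lists 58 rows named as copies or pseudogenes of these genes, 17 of them with any count, and none had more than 91 counts in a library, where the members had 3104 to 51572. HSPD1P1, the copy with the most counts, had 81, 44 and 80 counts in GPT2si and 79, 91 and 84 in GPT2sinc. CCT6P1 had 70, 42 and 70 counts in GPT2si and 72, 54 and 44 in GPT2sinc. The treatment of reads shared between a gene and its copies was not given in the sources used here. The read-through gene HSPE1-MOB4, which shares 192 exon bases with HSPE1, had 0 counts in all libraries, where 3 counts equal 0.059 to 0.0715 CPM.

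Several subunit genes start close to a gene on the opposite strand. MRPL18, a mitochondrial ribosomal protein gene that starts 63 bases from TCP1, was at 27.3 ± 0.638 CPM in GPT2si and 21.8 ± 1.01 CPM in GPT2sinc, without overlap of the groups (log2 fold change 0.32; adjusted p = 0.124, edgeR). PSPH, the phosphoserine phosphatase gene of serine synthesis, starts 26 bases from CCT6A and was at 111 ± 5.96 CPM in GPT2si and 93.0 ± 7.64 CPM in GPT2sinc, again without overlap (0.26; adjusted p = 0.167, edgeR). In both pairs the neighbour separated the groups and the TRiC gene did not, without offsets. The neighbours have 48.0% and 49.8% GC. After the GC and length offsets the groups of TCP1 and CCT6A did not overlap either, as in 22.5% of all genes. ATPSCKMT beside CCT5 was at 0.10, PRADC1 beside CCT7 at 0.16 and COMMD1, whose start lies 80 bases inside CCT4, at 0.19 on the log2 scale, and none passed. ACAT2, a thiolase gene of the cytosol whose exons overlap those of TCP1 on the opposite strand over 397 bases, was at 34.1 ± 2.27 CPM in GPT2si and 25.8 ± 2.06 CPM in GPT2sinc (0.40; adjusted p = 0.0951, edgeR). The microRNA gene MIR3913-1 near CCT2 had 0 counts.

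None of the tested partners that feed TRiC or take over from it passed the main edgeR fit, without offsets or block. With the replicate block 1 of 9 prefoldin-like and phosducin-like cofactors was called higher, where 1.48% of all genes were. DESeq2 also called 1 of these 9 higher, where it called 3.96% of its genes higher. With offsets, where 7.97% of all genes were called higher and 4.44% lower, the fit called 1 of 6 prefoldin genes, 2 of 9 prefoldin-like and phosducin-like cofactors and 1 of 5 tubulin cofactors higher. Of 6 prefoldin genes, whose product hands unfolded actin and tubulin to TRiC, 0 passed, with PFDN2 at 48.6 ± 5.44 CPM in GPT2si and 37.9 ± 2.37 CPM in GPT2sinc (log2 fold change 0.36) and the other 5 between −0.04 and 0.14. Of 9 prefoldin-like and phosducin-like cofactors 0 passed: the AAA+ ATPase gene RUVBL1 was at 0.46 (adjusted p = 0.0945, edgeR), TXNDC9 at 0.22, UXT at 0.21 and PDCL at −0.28. Of 5 tubulin folding cofactors 0 passed, with TBCC at 0.37 and TBCB at 0.22. Of 4 tested chaperonin-like genes 0 passed, among them MKKS at 0.27 and BBS12 at −0.47, and the TRiC paralog CCT6B was at 0.595 ± 0.0603 CPM in GPT2si and 0.792 ± 0.241 CPM in GPT2sinc.

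The clients of TRiC spread to both sides. Of 14 tubulin and actin genes 0 passed; at an unadjusted p under 0.05, 3 had higher and 2 lower values, where 10.3% and 9.27% of all genes did, and the median was 0.10. With offsets 2 were called higher and 2 lower (7.97% and 4.44% of all genes), and DESeq2 called 1 lower. Beta-actin, ACTB, was at 7621 ± 925 CPM in GPT2si and 6158 ± 477 CPM in GPT2sinc (log2 fold change 0.31), gamma-tubulin, TUBG1, at 0.34, TUBB4A at −0.28 and TUBA4A at −0.67 (adjusted p = 0.0863, edgeR, at 3.90 ± 0.368 CPM in GPT2si and 6.19 ± 0.955 CPM in GPT2sinc). Tubulins and actins have near-identical paralogs and processed copies, which makes their separate counts uncertain. Of 9 other clients 0 passed (1 higher with offsets and 1 with DESeq2): CCNE1, cyclin E, was at 0.38 (adjusted p = 0.0888, edgeR), HDAC3 at −0.21, VHL at −0.08 and STAT3 at −0.03.

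**Figure D5:**
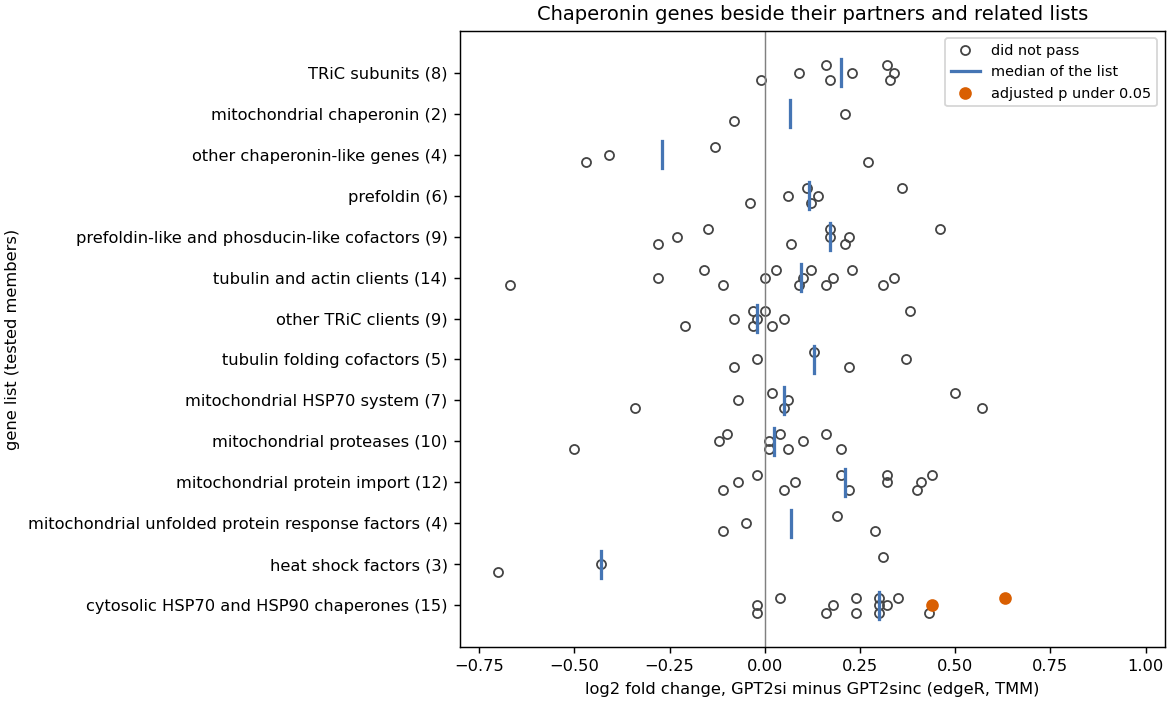
Log2 fold change (GPT2si minus GPT2sinc) of every tested gene in each list, with the number of tested genes in brackets; blue bars are list medians and filled points passed the edgeR test. The only filled points are HSPA8 and HSPA1B among the cytosolic chaperones, and the 8 TRiC subunits lie between −0.01 and 0.34.

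In mitochondria, around HSPD1 and HSPE1, no listed gene passed the main edgeR fit (TMM factors, all 6 libraries, no offsets or block). With the replicate block 1 HSP70 system gene was called higher and 1 protease gene lower, where 252 and 306 of 17006 genes were. DESeq2 and edgeR without GPT2si 2 each called 1 HSP70 system gene higher, 1 lower and 1 protease gene lower. Over all genes these called 573 and 459 of 14472, and 377 and 459 of 17525. With offsets, 1 gene of the HSP70 system was called higher and 1 lower, 6 import genes higher and 1 protease gene lower, where 7.97% of all genes were called higher and 4.44% lower. Of 7 genes of the mitochondrial HSP70 system 0 passed, with the J-domain gene DNAJA3 at 105 ± 15.8 CPM in GPT2si and 74.1 ± 1.86 CPM in GPT2sinc (log2 fold change 0.50; adjusted p = 0.062, edgeR) and the exchange factor gene GRPEL1 at 97.3 ± 7.25 and 123 ± 4.44 CPM (−0.34; adjusted p = 0.0867, edgeR). HSPA9, the matrix HSP70 itself, was at −0.07. Of 12 genes of protein import 0 passed, and at an unadjusted p under 0.05 the values of 6 were higher and of 0 lower, where 10.3% and 9.27% of all genes were, with a median of 0.21. Examples were TIMM23 at 0.44 (adjusted p = 0.0679, edgeR), TOMM22 at 0.40, TOMM40 at 0.32 and TIMM44 at 0.32. Of 10 mitochondrial proteases 0 passed, with CLPX, the unfoldase of the CLP protease, at −0.50, LONP1 at −0.12 and PMPCA at 0.20.

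The listed stress-response transcription factors did not pass the main edgeR fit. With offsets 1 of 4 factors of the mitochondrial unfolded protein response was called higher (7.97% of all genes). In that fit 1 of 3 heat shock factors was called higher and 1 lower (7.97% and 4.44% of all genes). Of 4 factors of the mitochondrial unfolded protein response 0 passed, with ATF5 at 0.29, ATF4 at 0.19, DDIT3 at −0.11 and CEBPB at −0.05 on the log2 scale. Of 3 heat shock factors 0 passed: HSF1 was at 99.5 ± 12.5 CPM in GPT2si and 80.1 ± 7.03 CPM in GPT2sinc (0.31), HSF2 at 23.6 ± 4.51 and 31.8 ± 2.96 CPM (−0.43) and HSF4 at −0.70. Of 15 cytosolic HSP70 and HSP90 chaperone genes 2 rose and 0 fell, where 0.576% and 0.841% of all genes did, HSPA8 (0.63; adjusted p = 0.025, edgeR) and HSPA1B (0.44; adjusted p = 0.0468, edgeR), which is nearly identical to HSPA1A (0.43; adjusted p = 0.0509, edgeR). That count was 0 without GPT2si 1 or any 1 of the GPT2sinc libraries and 0 with no low-count filter, 1 without GPT2si 3 and with DESeq2 size factors, 6 without GPT2si 2 (2.15% of all genes called higher) and 9 with offsets (7.97%). The median of that list was 0.30, against 0.20 for TRiC subunits; these lists were not tested against each other.

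By mean absolute difference of centred log2 CPM over the 6 libraries, the protein-coding genes closest to the mean of the 8 TRiC subunits, out of 10156 with at least 5 CPM, were MYL12B, ATXN10 and RPS6 (0.016 each), RPL6 (0.017) and SRSF3 (0.019). That mean profile was 0.17, 0.01 and 0.12 in GPT2si 1, 2 and 3, against −0.21, −0.06 and −0.03 in GPT2sinc 1, 2 and 3. In GPT2si 2 the single subunits ran from −0.23 (CCT8) to 0.31 (CCT7), so the mean is not a shared level there. Closest to the mean of HSPD1 and HSPE1 were CDC42 and ANXA7 (0.017 each), RAB11A, MESD and MEAF6 (0.02 each). This mean averages opposite deviations in GPT2si 2, so it describes neither gene of the pair there.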

How the data were processed

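The table deposited by the authors holds raw counts, whole numbers for each Ensembl gene identifier in each of 6 libraries; 0 columns were left unmapped. Poly(A) RNA was made into stranded libraries, per the labels' protocols, and CASAVA and StringTie are named without versions or roles, per the submitters' processing notes. Aligner, counting program, strand setting, build and annotation: not given in the sources used here.

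Groups and replicate numbers came from sample titles. Counts were tested with edgeR 4.0.16 (quasi-likelihood F test, TMM factors, filterByExpr, R 4.3.3), adjusted over 17006 genes with a threshold of 0.05; no test was made over the members alone. Standard errors and 95% intervals were derived from the F statistic. Levels are TMM-scaled CPM, and centred values are log2 CPM with a prior count of 2. Alternatives used DESeq2 1.42.0, limma 3.58.1, other factors and filters, a replicate block, offsets from a loess fit (span 0.5) on GC content and length of GENCODE 29 principal transcripts, which covered 98.9% of tested genes, and leaving out single libraries. Leaving out libraries in the fit with offsets was added after seeing the data. Symbols were found for 60295 rows; MKKS, on 3 rows, was read from the row with that name in GENCODE. Named genes were the members, GPT2, up to 4 of smallest p per list, genes starting within 1000 bases of a member on the other strand or sharing its exons, the 2 copies with most counts and the 5 nearest patterns; the marker genes outside this rule were named after their values were seen. The fit was run on simulated counts with no GC trend and with planted changes larger than those of the members. That run does not bear on differences of the size reported here. Members and lists were chosen with earlier results of these data known. Floors rest on counts and cover counting error only, and PCR reads are not independent molecules. The 95% intervals also carry the spread between libraries. The result of 1 marker gene is not reported here.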

Additional observations from a re-analysis of the deposited data

How the results depend on the processing

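Counts of genes higher and lower with GPT2si (98 and 143 by edgeR) were 61 and 112 with DESeq2 size factors in edgeR, 17 and 27 with no low-count filter, 573 and 459 with DESeq2, and 1341 and 747 with GC and length offsets. Leaving out 1 library gave 0 to 377 higher and 1 to 459 lower, and with offsets 409 and 280 (without GPT2si 1), 953 and 577 (GPT2si 2), 1236 and 545 (GPT2si 3), 313 and 232 (GPT2sinc 1), 312 and 226 (GPT2sinc 2) and 657 and 374 (GPT2sinc 3). Members called higher (0) numbered 2 with DESeq2, 4 with offsets, 0 to 1 without 1 library, and 0 to 3 without 1 library and with offsets. CCT8 had the opposite sign with offsets (0.05), without GPT2si 2 (0.07), without GPT2sinc 2 (0.01) and with offsets without 1 library (0.04, 0.05 and 0.08), as had HSPD1 without GPT2si 2 (0.04, also with offsets) and with offsets without GPT2sinc 2 (0.00); neither passed in any of these, and the cause was not tested. Without 1 library and without offsets CCT8 ran from −0.07 to 0.07 and HSPD1 from −0.16 to 0.04. With the replicate number as a block there were 252 genes higher and 306 lower and 0 members called. Block and offsets together gave 1316 and 708 with 4 members higher and CCT8 at 0.05. Deviations of same-numbered libraries correlated at 0.0855, 0.114 and −0.187, and not every library correlated best with its own number. These deviations were not corrected for GC content, so they cannot show whether the numbers pair the libraries. Of 231 log2 fold changes of members and GPT2 under alternatives, 200 kept their direction and side of the threshold. With at least 3104 counts per member and library, the spread between libraries and not counting limits these comparisons.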
